A study of Homo sapiens with 12 samples.

Results

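The 10 genes described here encode the transcription factor NRF2 (NFE2L2), 2 of its regulators (KEAP1, BACH1), 4 proteins of the cytosolic thioredoxin system (TXN, TXNRD1, PRDX1, SRXN1) and 3 other products of genes known as NRF2 targets (NQO1, OSGIN1, ABCC2). They were chosen with earlier results of these data known, so counts of them beside all genes describe a list that was not picked independently. Found by symbol, through the Ensembl identifiers of the count table, they are 10 of the 70116 identifiers listed. All 10 had enough counts to be tested. RNA with a poly(A) tail was sequenced from MiaPaCa-2 cells, a widely used line derived from a human pancreatic tumour, that had received siRNA, a short duplex that directs the breakdown of a matching transcript. The 4 groups were a control siRNA (siControl) and siRNAs against SLC25A1, the carrier that exports citrate from mitochondria (siSLC25A1), ACLY, the cytosolic enzyme that splits citrate (siACLY), and ACO1, the cytosolic aconitase (siACO1), with 3 replicates each. The series title places the question in citrate transport and ferroptosis, the death of cells by iron-catalysed peroxidation of membrane lipids, under nutrient stress. All 4 groups share the cell line and the transfection. How many siRNAs were used for each target, their sequences, the time after transfection and the nutrient condition were not given in the sources used here, so an effect of a single siRNA on other transcripts cannot be told apart from the loss of its target.

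NRF2 is a transcription factor that pairs with small MAF proteins on antioxidant response elements in DNA. In unstressed cells KEAP1 binds NRF2 and presents it to a ubiquitin ligase for degradation, and electrophiles or oxidants that modify KEAP1 let NRF2 accumulate, so much of its control acts on the protein and is not seen in RNA. BACH1 is a haem-binding repressor that occupies the same elements. The thioredoxin system passes electrons from NADPH through thioredoxin reductase 1 (TXNRD1) to thioredoxin (TXN), which reduces peroxiredoxins such as PRDX1, while sulfiredoxin (SRXN1) rescues peroxiredoxins that have been over-oxidised.

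Library totals ran from 24159424 to 43792811 counts. The targeted transcript fell in its own knockdown, SLC25A1 to 8.75%, ACLY to 7.24% and ACO1 to 3.72% of the mean siControl level. KRT8, KRT18 and VIM were abundant in siControl, at 2278, 1325 and 3561 CPM (counts per 1e6 counts of the library, after TMM scaling between libraries), while KRT7 stood at 0.166 CPM and EPCAM and CDH1 at 0, so the latter 3 epithelial markers were absent or nearly so. Of 18 markers of leukocytes, endothelium, fibroblasts, acinar and endocrine cells, 17 had a mean of at most 0.222 CPM in every group; the exception was COL1A2 at 885 CPM in siControl, beside 0.184 CPM for COL1A1. The siACO1 replicate 3 library stood apart from its group, with a chi-square per degree of freedom of 11.8 and 12.5 against its replicates, where the other replicate pairs had 2.31 to 5.85. Relative to the mean of the other siACO1 libraries, its short genes were higher and its long genes lower, with a median log2 departure of 0.13 over the 2613 genes with at most 3325 exon bases and -0.10 over the 2612 with at least 7635. Fold changes of single genes in siACO1 are therefore also given without it, below. Genes were tested in edgeR's quasi-likelihood test with Benjamini-Hochberg adjustment over 16197 genes, and "called" means an adjusted p under 0.05. The labels do not say that replicates came from separate cultures, so p-values measure only the spread between these samples.

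Some promoter stretches are shown for TXNRD1, NQO1 and OSGIN1, which took different courses in the knockdowns. Whether the letters shown have a part in those courses was not tested. In RefSeq windows on GRCh38.p14, from 250 bases before to 50 bases after an annotated start, both strands were searched for TGACNNNGC, the core letters of the antioxidant response element, and for TGAGNNNGC, which differs from it at the fourth letter. The first was in 13.3% of 35116 windows of all genes and the second in 18.3%. Counted by gene, where a gene can have several windows, the shares were 16.1% and 21.6% of 27305 genes. Windows were given for 9 of the 10 genes (not PRDX1). TXNRD1 had 3 matches to the first and 1 to the second in 2 windows, NQO1 and OSGIN1 had 1 match each to the second, KEAP1 had 2 and 1, and NFE2L2 had 2 matches to the second. BACH1, TXN, SRXN1 and ABCC2 had none, which says only that these letters are not in these windows. In the stretches below, written 5′ to 3′ on the strand that reads the motif, capitals mark the 9 matching letters.
TXNRD1, first window, chr12:104215670-104215698 (+): acacgggctaTGACTTCGCtgttgtcacc
TXNRD1, first window, chr12:104215761-104215789 (-): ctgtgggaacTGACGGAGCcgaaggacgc
TXNRD1, other window, chr12:104286920-104286948 (-): agagtcagaaTGACAAAGCagaaatccac
TXNRD1, other window, chr12:104286824-104286852 (+): ggggcggctaTGAGCAGGCagaggatgtg
NQO1, chr16:69726661-69726689 (+): cggaggatgcTGAGGCTGCagctccagga
OSGIN1, chr16:83953131-83953159 (-): ttcataagcgTGAGTCAGCaggggcccgt
The OSGIN1 match began 99 bases before the start and also contained the letters TGANTCA, the core of the AP-1 element, which the other stretches shown did not. A match describes letters and not a bound site.

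Compared per exon length in siControl, PRDX1 was the most abundant of the 10 at 442 ± 9.97 RPKM (CPM per kilobase of exon, mean ± SD, n = 3). TXN followed at 211 ± 2.27, NQO1 at 182 ± 3.19 and TXNRD1 at 80.5 ± 3.09 RPKM. KEAP1 stood at 28.5 ± 1.53, ABCC2 at 21.7 ± 0.285 and NFE2L2 at 13.5 ± 0.232 RPKM. OSGIN1 had 7.06 ± 0.198, BACH1 6.41 ± 0.309 and SRXN1 6.27 ± 0.415 RPKM, and BACH1 and SRXN1 differed by less than their SD. The enzymes of the thioredoxin system other than SRXN1, and NQO1, thus lay above all 3 regulators. The SRXN1 level is uncertain, since 85.0% of its exon bases overlap a gene on the same strand. How reads there were counted is not given, so its place in this order is not settled. In bulk RNA, fewer cells with a transcript and less of it per cell cannot be told apart.

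**Figure D1:**
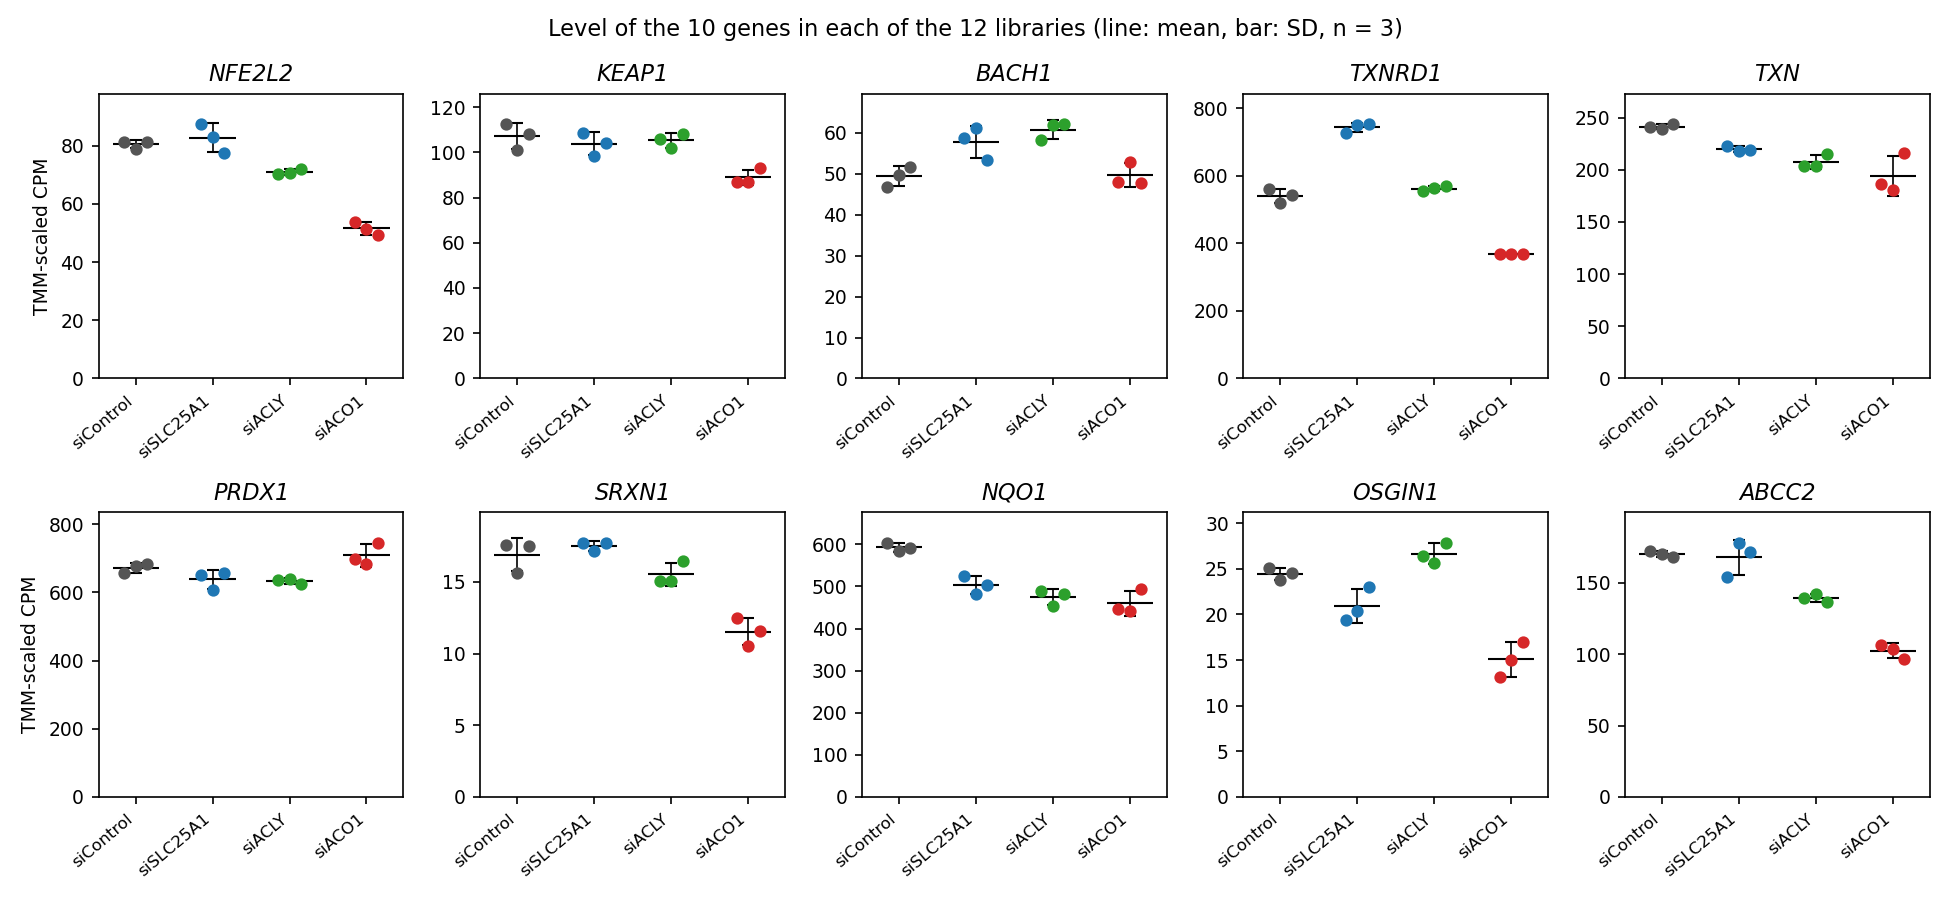
Levels of the 10 genes in TMM-scaled CPM (y axis, from 0) in each of the 12 libraries, by group (x axis); each point is a library, the line is the mean and the bar the SD (n = 3). NFE2L2, KEAP1, TXNRD1, SRXN1, OSGIN1 and ABCC2 have their lowest 3 libraries in siACO1, and TXNRD1 has its highest 3 in siSLC25A1.

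NFE2L2 (ENSG00000116044.17, chr2:177227595-177392697, minus strand, GRCh38 in GENCODE 29) encodes NRF2 itself. Its levels in replicates 1, 2 and 3 were 81.4, 78.9 and 81.1 CPM in siControl and 87.4, 83.0 and 77.5 CPM in siSLC25A1. They were 70.3, 70.5 and 72.0 CPM in siACLY and 53.8, 51.5 and 49.3 CPM in siACO1. The siControl and siSLC25A1 libraries overlapped, every siACLY library lay below them, and every siACO1 library lay below siACLY. NFE2L2 fell to 64.1% of siControl in siACO1 (log2 fold change -0.64 ± 0.05 SE, adjusted p = 2.35e-11, edgeR) and to 88.2% in siACLY (-0.18 ± 0.05, adjusted p = 0.00383). In siSLC25A1 the change was 0.04 ± 0.05 (adjusted p = 0.634). NFE2L2 is an uncertain gene, because 20.9% of its exon bases overlap other genes. The overlapping AC019080.1, on the same strand, had 16.0% as many counts as NFE2L2, and its own values against siControl were 0.25 in siSLC25A1, 0.23 in siACLY and -0.05 in siACO1. AGPS, overlapping on the other strand, had 129% as many counts as NFE2L2, and its values were -0.15 (adjusted p = 0.0134, edgeR), -0.14 (adjusted p = 0.00892) and -0.04 (adjusted p = 0.47). Where AC019080.1 overlaps NFE2L2, their reads cannot be told apart even if strand was used. For AGPS this holds only if strand was not used.

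KEAP1 (ENSG00000079999.14, chr19:10486120-10503741, minus strand), the adaptor that hands NRF2 to the CUL3 ubiquitin ligase, was at 113, 101 and 108 CPM in siControl. It was at 109, 98.6 and 104 CPM in siSLC25A1, at 106, 102 and 108 CPM in siACLY, and at 86.9, 86.9 and 92.9 CPM in siACO1. The first 3 groups overlapped and the siACO1 libraries lay below all of them. KEAP1 fell to 82.8% of siControl in siACO1 (-0.27 ± 0.05, adjusted p = 4.6e-05, edgeR). It was not called in siSLC25A1 (-0.05, adjusted p = 0.548) or in siACLY (-0.03, adjusted p = 0.712; 0.02 when scaled by library totals alone). The transcript of NRF2 and that of its inhibitor were therefore both lower in siACO1.

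BACH1 (ENSG00000156273.16, chr21:29194071-29630751, plus strand), the competing repressor, was the only one of the 10 called higher in siACLY, apart from TXNRD1 when scaled by library totals alone. Its levels were 46.9, 49.8 and 51.6 CPM in siControl, 58.8, 61.2 and 53.3 CPM in siSLC25A1, 58.3, 62.1 and 62.2 CPM in siACLY, and 48.1, 53.0 and 47.8 CPM in siACO1. All siSLC25A1 and siACLY libraries lay above the siControl libraries, and siACO1 overlapped siControl. BACH1 rose to 117% in siSLC25A1 (0.23 ± 0.06, adjusted p = 0.00477, edgeR) and to 123% in siACLY (0.30 ± 0.06, adjusted p = 0.000115). These groups did not differ beyond their spread (-0.07, adjusted p = 0.365), and in siACO1 the change was 0.01 with a 95% interval of -0.13 to 0.14.

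TXNRD1 (ENSG00000198431.18, chr12:104215779-104350305, plus strand), the selenoprotein that reduces thioredoxin, changed in opposite directions in 2 knockdowns. Its libraries had 560, 518 and 542 CPM in siControl, 728, 750 and 753 CPM in siSLC25A1, 554, 563 and 569 CPM in siACLY, and 367, 368 and 370 CPM in siACO1. The order was siSLC25A1 above siACLY and siControl, which overlapped, and siACO1 below all. TXNRD1 rose to 138% of siControl in siSLC25A1 (0.46 ± 0.04, adjusted p = 2.68e-10, edgeR) and fell to 68.1% in siACO1 (-0.55 ± 0.04, adjusted p = 2.19e-12). In siACLY it changed by 0.06 ± 0.04 (adjusted p = 0.25), and by 0.10 (adjusted p = 0.0268) when scaled by library totals alone. Between siSLC25A1 and siACO1 the ratio was 202% (1.01 ± 0.04, adjusted p = 1.66e-18), the largest difference of the 10 genes in any of the 6 comparisons.

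TXN (ENSG00000136810.13, chr9:110243811-110256640, minus strand), the substrate of TXNRD1 and the main cytosolic disulfide reductase, fell as TXNRD1 did in siACO1 but did not follow TXNRD1 in siSLC25A1 or siACLY. It was at 241, 239 and 244 CPM in siControl, 223, 218 and 219 CPM in siSLC25A1, 204, 203 and 215 CPM in siACLY, and 186, 180 and 216 CPM in siACO1. Every knockdown library lay below every siControl library, and siACO1 replicate 3 lay 0.24 above the mean of the other siACO1 libraries on the log2 scale. TXN fell to 86.0% in siACLY (-0.22 ± 0.05, adjusted p = 0.000717, edgeR) and to 80.5% in siACO1 (-0.31 ± 0.05, adjusted p = 8.29e-06). Without siACO1 replicate 3 the siACO1 value was -0.40 (adjusted p = 1.93e-11). In siSLC25A1 it was at 91.2% with an adjusted p of 0.0558, which passed the threshold under 6 of 19 other settings. Other genes, pseudogenes among them, share 9.57% of its 31-base stretches.

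PRDX1 (ENSG00000117450.15, chr1:45511036-45523047, minus strand), an abundant peroxidase that uses thioredoxin, was called in no knockdown against siControl. It was at 656, 677 and 685 CPM in siControl, 650, 607 and 657 CPM in siSLC25A1, 636, 641 and 624 CPM in siACLY, and 697, 683 and 747 CPM in siACO1. The siACLY libraries lay just below siControl, and the other groups overlapped it. Its change was -0.08 (adjusted p = 0.21, edgeR) in siSLC25A1, -0.09 (adjusted p = 0.107; 0.0176 without siACO1 replicate 3) in siACLY, and 0.08 in siACO1 (95% interval -0.02 to 0.17, adjusted p = 0.16; 0.12 with adjusted p = 0.0101 when scaled by library totals alone). It was lower in siSLC25A1 than in siACO1 (-0.15, adjusted p = 0.00374) and lower in siACLY than in siACO1 (-0.16, adjusted p = 0.00216). PRDX1 is an uncertain gene, with 24.9% of its exon bases overlapping MMACHC on the other strand, whose counts were 3.17% of its own.

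SRXN1 (ENSG00000271303.2, chr20:646615-653370, minus strand), sulfiredoxin, was the least abundant of the thioredoxin genes. Its levels were 17.6, 15.6 and 17.5 CPM in siControl, 17.8, 17.1 and 17.7 CPM in siSLC25A1, 15.04, 15.09 and 16.5 CPM in siACLY, and 12.5, 10.6 and 11.6 CPM in siACO1. The siACO1 libraries lay below all others, while siSLC25A1 and siACLY each overlapped siControl. SRXN1 fell to 68.2% of siControl in siACO1 (-0.55 ± 0.08, adjusted p = 3.2e-06, edgeR), and was not called in siSLC25A1 (0.05, adjusted p = 0.705) or siACLY (-0.12, adjusted p = 0.229). It is an uncertain gene, since 85.0% of its exon bases overlap AL121758.1 on the same strand. That gene held 2 to 23 counts per library, 1.77% of the SRXN1 counts. Whether reads in the overlap were counted for either gene is not known, so the SRXN1 level may be too low.

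NQO1 (ENSG00000181019.13, chr16:69706996-69726951, minus strand), a quinone reductase widely read as an NRF2 target, was the only one of the 10 called in all 3 knockdowns, apart from TXN under 6 other settings, library totals alone among them. Its libraries had 604, 584 and 591 CPM in siControl, 526, 482 and 504 CPM in siSLC25A1, 489, 453 and 482 CPM in siACLY, and 445, 442 and 495 CPM in siACO1. No knockdown library reached the siControl range, while the knockdowns overlapped each other. NQO1 fell to 85.0% in siSLC25A1 (-0.23 ± 0.04, adjusted p = 0.000273, edgeR), to 80.0% in siACLY (-0.32 ± 0.04, adjusted p = 1.48e-06) and to 77.6% in siACO1 (-0.36 ± 0.04, adjusted p = 1.57e-07). The siSLC25A1 and siACLY levels did not differ beyond their spread (adjusted p = 0.143), nor did siACLY and siACO1 (adjusted p = 0.461); both differences were called without siACO1 replicate 3, at 0.09 and 0.10.

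OSGIN1 (ENSG00000140961.14, chr16:83948282-83966332, plus strand), an oxidative stress-induced growth inhibitor, was at 25.1, 23.7 and 24.5 CPM in siControl. It was at 19.4, 20.3 and 23.0 CPM in siSLC25A1, 26.4, 25.6 and 27.9 CPM in siACLY, and 13.2, 15.02 and 17.0 CPM in siACO1. The 4 groups did not overlap and ran from siACLY down through siControl and siSLC25A1 to siACO1. OSGIN1 fell to 61.6% of siControl in siACO1 (-0.69 ± 0.08, adjusted p = 6.05e-08, edgeR). In siSLC25A1 it fell to 85.6% (-0.23 ± 0.08, adjusted p = 0.0412), a call that was lost under 7 of 19 other settings. The higher siACLY level (0.12 ± 0.08, adjusted p = 0.22) was not called, and OSGIN1 was lower in siSLC25A1 than in siACLY (-0.35, adjusted p = 0.000865).

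ABCC2 (ENSG00000023839.12, chr10:99782640-99852594, plus strand), the export pump MRP2 for glutathione conjugates, fell most of the 10 in siACO1, except without siACO1 replicate 3, where OSGIN1 fell most (-0.79 beside -0.70). It was at 173, 170 and 168 CPM in siControl, 154, 178 and 172 CPM in siSLC25A1, 139, 142 and 137 CPM in siACLY, and 107, 104 and 96.5 CPM in siACO1. The siSLC25A1 libraries overlapped siControl, siACLY lay below both, and siACO1 lay below siACLY. ABCC2 fell to 60.2% of siControl in siACO1 (-0.73 ± 0.05, adjusted p = 7.13e-13, edgeR) and to 81.9% in siACLY (-0.29 ± 0.05, adjusted p = 1.65e-05). In siSLC25A1 the change was -0.02 with a 95% interval of -0.13 to 0.09.

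In siSLC25A1 against siControl, 4 of the 10 genes were called, beside 19.6% of all genes tested. TXNRD1 and BACH1 rose and NQO1 and OSGIN1 fell, where 10.3% of all genes were called higher and 9.27% lower. The libraries of 5 of the 10 did not overlap between the groups (37.1% of all genes). The median log2 fold change over the 10 was -0.03, beside -0.00 over all genes. NFE2L2 and KEAP1 were not called here, so the rise of TXNRD1 stood beside no called change in either transcript.

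In siACLY against siControl, 5 of the 10 were called, beside 36.7% of all genes. BACH1 rose, and NFE2L2, TXN, NQO1 and ABCC2 fell. For 7 of the 10 the groups did not overlap (50.5% of all genes), OSGIN1 and PRDX1 among them without being called. The median was -0.11, beside 0.01 over all genes. Of all called genes 50.1% were higher, and 61.0% when scaled by library totals alone.

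In siACO1 against siControl, 8 of the 10 were called and all 8 fell, beside 37.1% of all genes called and 19.3% called lower. They were NFE2L2, KEAP1, TXNRD1, TXN, SRXN1, NQO1, OSGIN1 and ABCC2, and BACH1 and PRDX1 were not called. For 8 the groups did not overlap (46.3% of all genes). The median was -0.46, beside 0.01 over all genes. Without siACO1 replicate 3 the same 8 genes were called. NFE2L2 was then at -0.61, KEAP1 at -0.31, TXNRD1 at -0.56, TXN at -0.40, SRXN1 at -0.56, NQO1 at -0.42, OSGIN1 at -0.79 and ABCC2 at -0.70, with BACH1 and PRDX1 both at 0.03. Of all called genes 47.9% were higher, and 59.5% when scaled by library totals alone, under which the 8 genes were also called lower. In the same libraries KRT8, KRT18 and KRT19 fell by 0.83, 0.78 and 0.76 and COL1A2 rose by 0.83 on the log2 scale (edgeR), and whether this has a part in the values of the 10 genes was not tested.

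**Figure D2:**
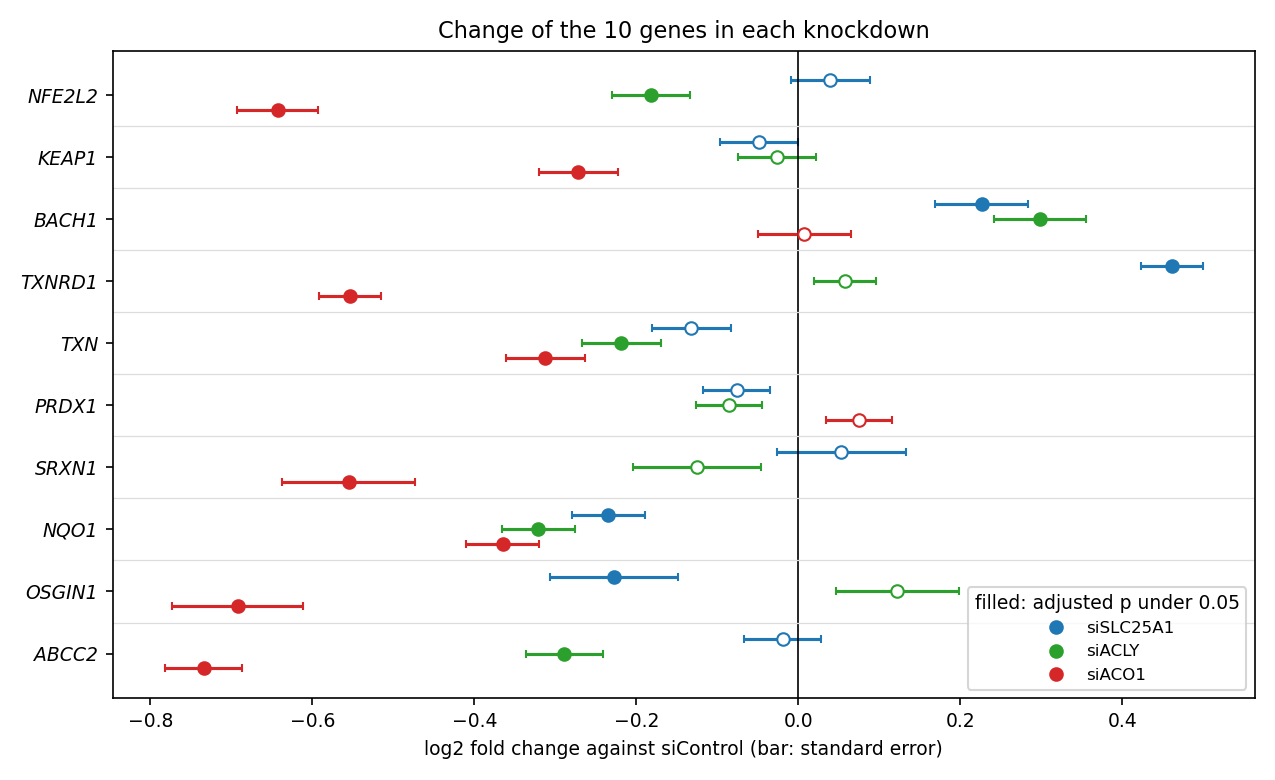
Log2 fold change of each of the 10 genes (y axis) in each knockdown against siControl (x axis), with bars for the standard error and filled points for an adjusted p under 0.05. In siACO1 8 points are filled and all lie left of 0, between -0.73 and -0.27, while TXNRD1 in siSLC25A1 lies at 0.46.

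The 3 comparisons share the siControl libraries. Of the 10 genes, PRDX1 was called in none of them, KEAP1 and SRXN1 in 1, NQO1 in all 3, and the other 6 in 2. Over all genes these shares were 41% for none, 31.6% for 1, 20.6% for 2 and 6.87% for 3.

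The knockdowns were also compared directly. In siSLC25A1 against siACLY, 4 of the 10 were called, beside 33.8% of all genes. NFE2L2 (0.22, adjusted p = 0.000718, edgeR), TXNRD1 (0.40, adjusted p = 1.68e-09) and ABCC2 (0.27, adjusted p = 5.15e-05) were higher in siSLC25A1, and OSGIN1 was lower. The groups did not overlap for 6 of the 10 (46.5% of all genes). Of all genes called here 51.8% were higher, and 41.0% when scaled by library totals alone.

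In siSLC25A1 against siACO1 all 10 were called, beside 42.1% of all genes. Higher in siSLC25A1 were 9 (21.8% of all genes), among them TXNRD1, ABCC2 (0.71, adjusted p = 7.33e-13, edgeR), NFE2L2 (0.68, adjusted p = 4.23e-12), SRXN1 (0.61, adjusted p = 7.28e-07) and OSGIN1 (0.46, adjusted p = 4.07e-05), and PRDX1 was lower. For 9 the groups did not overlap (48% of all genes). The smallest of the 10, NQO1 at 0.13 (adjusted p = 0.0199), had overlapping libraries and lost its call under 6 of 19 other settings. Without siACO1 replicate 3 all 10 were called in the same directions. The values were then 1.02 for TXNRD1, 0.68 for ABCC2, 0.66 for NFE2L2, 0.62 for SRXN1, 0.56 for OSGIN1, 0.27 for TXN, 0.26 for KEAP1, and 0.19 for BACH1 and NQO1, with PRDX1 at -0.11.

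In siACLY against siACO1, 8 of the 10 were called, beside 42.1% of all genes. OSGIN1 (0.81, adjusted p = 1.94e-09, edgeR), TXNRD1 (0.61, adjusted p = 1.56e-13), NFE2L2 (0.46, adjusted p = 1.16e-08), ABCC2 (0.45, adjusted p = 1.15e-08) and SRXN1 (0.43, adjusted p = 0.000102) were higher in siACLY. So were BACH1 and KEAP1, at 0.29 and 0.25. For 8 of the 10 the groups did not overlap (49% of all genes). TXN (0.09, adjusted p = 0.129) and NQO1 (0.04, adjusted p = 0.461) were not called, and were called at 0.18 (adjusted p = 0.000153) and 0.10 (adjusted p = 0.0361) without siACO1 replicate 3. The 8 genes were then also called, OSGIN1 at 0.91, TXNRD1 at 0.61, NFE2L2 and SRXN1 at 0.43, ABCC2 at 0.40, KEAP1 at 0.28, BACH1 at 0.26 and PRDX1 at -0.12.

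Ratios between members within a library do not depend on the scaling between libraries. The 3 pairs given here were chosen after the values had been seen and carry no test. The ratio of TXNRD1 to TXN, both per kilobase, was 0.395, 0.370 and 0.378 in siControl, 0.555, 0.586 and 0.585 in siSLC25A1, 0.463, 0.471 and 0.451 in siACLY, and 0.336, 0.347 and 0.291 in siACO1. The 4 groups did not overlap, with reductase highest relative to its substrate in siSLC25A1 and lowest in siACO1. TXN has 1142 exon bases and TXNRD1 6708. The lowest ratio, 0.291, was in siACO1 replicate 3, where short genes were higher and long genes lower. A ratio does not remove such a departure, but the other siACO1 libraries also lay below every siControl library. TXNRD1 to NQO1 gave the same order, with means of 0.717 ± 0.0419 in siSLC25A1, 0.575 ± 0.0268 in siACLY, 0.442 ± 0.00985 in siControl and 0.389 ± 0.0228 in siACO1 (SD, n = 3; 0.400, 0.404 and 0.362 in the siACO1 libraries). BACH1 to NFE2L2, repressor to activator, had another order, with 0.476 ± 0.0261 in siControl, 0.542 ± 0.0258 in siSLC25A1, 0.664 ± 0.0205 in siACLY and 0.746 ± 0.0527 in siACO1 (0.692, 0.797 and 0.750 in its libraries). All 9 knockdown libraries lay above the siControl libraries in that ratio, and a ratio does not show which transcript moved.

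**Figure D3:**
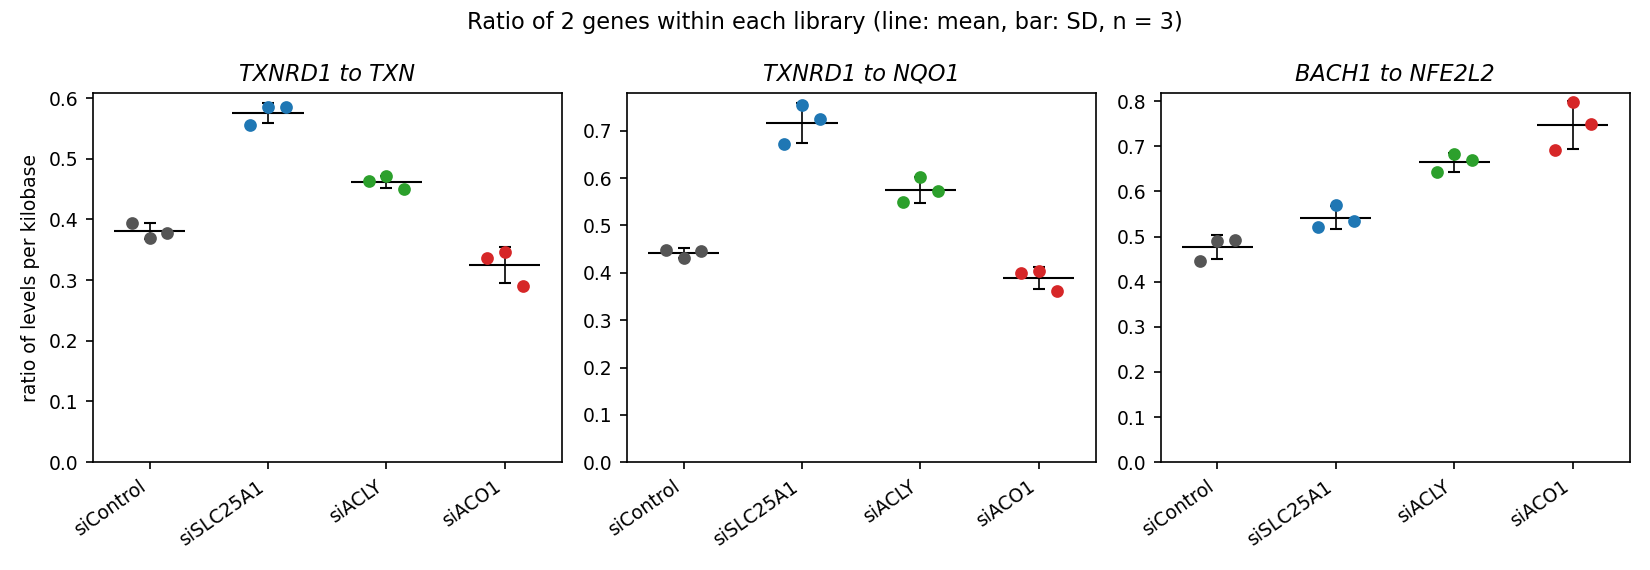
Ratio of levels per kilobase of TXNRD1 to TXN, TXNRD1 to NQO1 and BACH1 to NFE2L2 (y axes, from 0) in each library, by group (x axis), with the mean as a line and the SD as a bar (n = 3). The TXNRD1 ratios are highest in siSLC25A1 and lowest in siACO1, and the ratio of BACH1 to NFE2L2 is lowest in siControl and has its highest mean, 0.746, in siACO1.

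Other genes of the pathway were taken from lists, and those named from each list are the called genes with the largest changes. Of 16 partners and regulators of NRF2, 15 were tested; 2 were higher and 3 lower in siSLC25A1, 1 and 1 in siACLY, and 2 and 5 in siACO1. The called shares were 33.3%, 13.3% and 46.7%, beside 19.6%, 36.7% and 37.1% of all genes. Their medians were 0.02, -0.04 and -0.04, and the last 2 were both 0.01 when scaled by library totals alone. MAFK, a small MAF partner of NRF2, fell from 35.8 ± 3.60 CPM in siControl to 26.8 ± 1.08 in siSLC25A1 (-0.41, adjusted p = 5.3e-05, edgeR) and 22.4 ± 1.68 in siACLY (-0.67, adjusted p = 9.12e-09). MAFF, another, fell in siACO1 (-0.51, adjusted p = 5.83e-05) and rose in siACLY (0.23, adjusted p = 0.0381), the latter a call lost under 7 other settings. In siACO1 there were also falls of DPP3 (-0.45, adjusted p = 5.87e-09), a peptidase that binds KEAP1, and of NFE2L1 (-0.31, adjusted p = 1.9e-05), a relative of NRF2. Without siACO1 replicate 3 these siACO1 values were -0.62 for MAFF, -0.48 for DPP3 and -0.26 for NFE2L1. In siSLC25A1 NFE2L3, another relative, rose (0.37, adjusted p = 1.37e-06), and SQSTM1, a KEAP1-binding autophagy receptor with 22.0% of its exon bases overlapped, fell (-0.35, adjusted p = 0.047; lost under 7 other settings). The 5 calls in siSLC25A1 were 8 without siACO1 replicate 3. The 2 calls in siACLY were 1 when siControl replicate 1 or 3, siSLC25A1 replicate 2 or 3, or siACLY replicate 2 was left out.

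Of 33 other genes known as NRF2 targets, 27 were tested, and more fell than rose in each knockdown. In siSLC25A1 3 were higher and 10 lower, in siACLY 4 and 12, and in siACO1 4 and 12, with medians of -0.10, -0.16 and -0.19. The siACO1 median was -0.08 without siACO1 replicate 1. Called higher and lower over all genes were 10.3% and 9.27% in siSLC25A1, 18.4% and 18.3% in siACLY, and 17.8% and 19.3% in siACO1. HMOX1, haem oxygenase 1 and a gene repressed by BACH1, went the other way in siSLC25A1 and siACLY only. It rose from 19.9 ± 0.830 CPM in siControl to 30.6 ± 1.70 in siSLC25A1 (0.62, adjusted p = 6.57e-07, edgeR) and 56.0 ± 4.15 in siACLY (1.49, adjusted p = 2.89e-15). In those groups BACH1 itself was also higher. PIR, an iron-binding nuclear protein, fell in siSLC25A1 (-0.46, adjusted p = 0.00381). CBR1, a carbonyl reductase, fell in siACO1 from 52.3 ± 1.03 to 28.1 ± 2.14 CPM (-0.90, adjusted p = 3.72e-13). Its neighbour and relative CBR3, with 42.2% of its exon bases overlapped by an antisense gene, rose there from 4.00 to 5.82 CPM (0.54, adjusted p = 0.00416). FTL, the ferritin light chain, fell in siACLY (-0.41, adjusted p = 3.59e-08) and siACO1 (-0.61, adjusted p = 1.11e-11), with 33.3% of its 31-base stretches found in other genes. The siACO1 values were -0.96 for CBR1, 0.51 for CBR3 and -0.69 for FTL without siACO1 replicate 3. TRIM16, also uncertain, fell in siACLY (-0.39, adjusted p = 0.00591).

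Of 24 further genes of the thioredoxin and peroxiredoxin system, 21 were tested, and they had no common direction. In siSLC25A1 1 was higher and 1 lower, in siACLY 6 and 3, and in siACO1 5 and 5, with medians of 0.02, 0.05 and -0.03 (the last 0.02 when scaled by library totals alone). The called shares were 9.52%, 42.9% and 47.6%, beside 19.6%, 36.7% and 37.1% of all genes. Without siACO1 replicate 3 the counts higher and lower were 2 and 3, 8 and 5, and 4 and 9. In siACLY they were 9 and 1 when scaled by library totals alone. They were 3 and 4 there under the DESeq2 Wald test, and also with no filter on low counts. Over the 19 other settings, 2 to 5 genes were called in siSLC25A1. The 2 called in siSLC25A1 were TXNIP and TXN2, the mitochondrial thioredoxin (-0.24, adjusted p = 0.000735, edgeR). TXNIP, a thioredoxin-binding inhibitor, rose in all 3 knockdowns, from 12.8 ± 1.47 CPM in siControl to 35.2 ± 1.61 in siSLC25A1 (1.46, adjusted p = 1.22e-14), 35.7 ± 0.990 in siACLY (1.48, adjusted p = 3.8e-15) and 25.3 ± 2.09 in siACO1 (0.99, adjusted p = 3.13e-11). TXNRD3, a reductase related to TXNRD1, rose in siACLY (0.70, adjusted p = 6.47e-11), where TXNRD1 was not called, as did SESN1 (0.52, adjusted p = 2.27e-05). MSRB2, a methionine sulfoxide reductase (-0.61, adjusted p = 1.69e-05), and NXN, nucleoredoxin (-0.44, adjusted p = 1.26e-05), fell in siACO1. TXNIP was at 0.91, MSRB2 at -0.66 and NXN at -0.52 in siACO1 without its replicate 3.

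Among 8 other transporters of the ABCC family, 5 were tested, and none was called lower in siACO1, where ABCC2 fell. ABCC5 rose there from 101 to 132 CPM (0.38, adjusted p = 4.12e-07, edgeR), as did ABCC10 (0.21, adjusted p = 0.00308), and without siACO1 replicate 3 they were at 0.40 and 0.24. These 2 of 5 stood beside 37.1% of all genes called. In siACLY 3 were higher and 1 lower (36.7% of all genes called), with ABCC10 at 0.37 (adjusted p = 3.33e-06), ABCC3 at 0.32 (adjusted p = 0.0255) and ABCC4 at -0.15 (adjusted p = 0.049). The ABCC3 and ABCC4 calls were lost under 4 and 9 of 19 other settings, and 1 or 2 of the list were called when any single siControl or siACLY library was left out. The 1 call in siSLC25A1 (19.6% of all genes), ABCC5 at -0.15 (adjusted p = 0.0284), was lost without siControl replicate 2 or 3 or siSLC25A1 replicate 1.

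**Figure D4:**
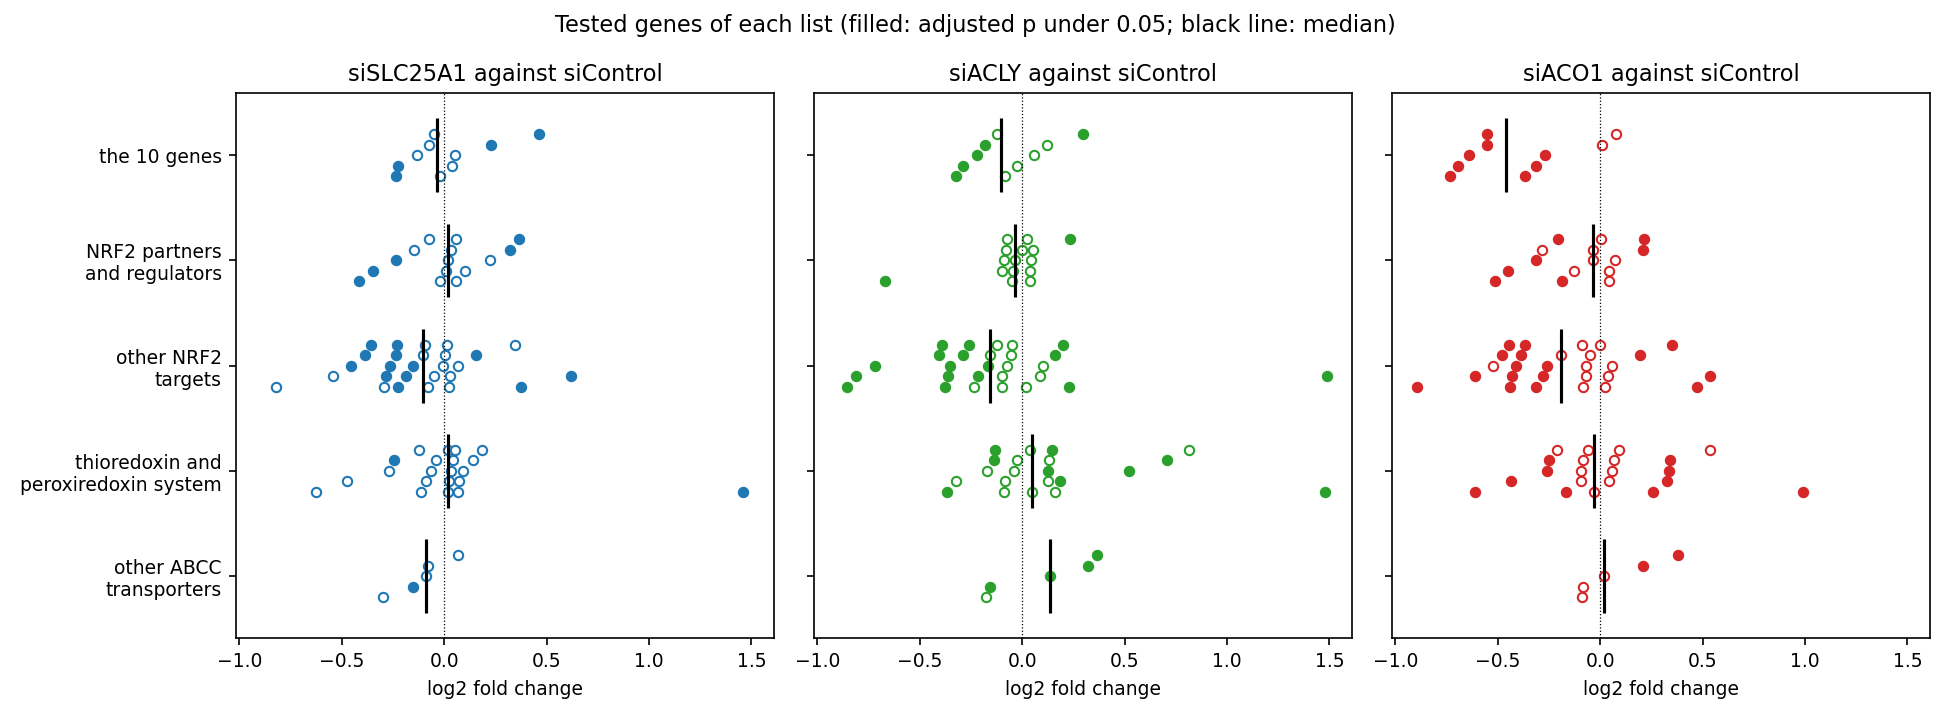
Log2 fold change against siControl (x axis) of every tested gene of the 10 and of the 4 other lists (y axis), in 1 panel for each knockdown, with filled points for an adjusted p under 0.05 and a black line for the list's median. In siACO1 the median of the 10 lies at -0.46, that of the other NRF2 targets at -0.19 (-0.08 without siACO1 replicate 1), and those of the other 3 lists between -0.04 and 0.02.

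For each member called in at least 2 knockdowns with a change of at least 0.5 in 1 of them, the genes with the most similar course over the 12 libraries were found by the root mean square difference of centred log2 CPM. TXNRD1, whose own spread was 0.362 on this scale, was followed most closely by HK2 (0.0430), which changed by 0.45, 0.04 and -0.58 in siSLC25A1, siACLY and siACO1, and then by GLTP (0.0511) and CMIP (0.0642). NFE2L2, with a spread of 0.274, was nearest to KLHL21 (0.0449), DAG1 (0.0699) and IPO5 (0.0738). Among the nearest to ABCC2 (0.301) were SLC7A5 (0.0569) and PLXNA3 (0.0658). OSGIN1 (0.330) had less close neighbours, ABCA10 (0.0928), SELENOW (0.0958) and EIF4EBP1 (0.104). None of these genes was another of the 10.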

How the data were processed

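Poly(A) RNA of 12 libraries, 3 for each of 4 siRNA groups, was compared. The authors deposited 1 table of raw read counts per gene, per the file headers and its whole-number values. The submitters' processing notes name CASAVA, FastQC, Trim Galore, STAR 2.7.0e and DESeq2, and the builds GRCm39 and GRCh38; the counting tool, the annotation release and the use of strand are not given in the sources used here. With edgeR 4.0.16 in R 4.3.3, the counts were filtered with filterByExpr at its defaults, scaled by TMM (trimmed mean of M values) and fitted with a robust quasi-likelihood model of the 4 groups without a block. This left 16197 genes and 8 residual degrees of freedom, with a common biological coefficient of variation of 4.89%. All 6 pairs of groups were tested, two-sided, with Benjamini-Hochberg adjustment over all genes tested. Scaling to library totals cannot show a change in the RNA content of cells. The 95% intervals use the 8 residual degrees of freedom.

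Values per kilobase divide CPM by the union of exon bases in GENCODE 29 (GRCh38), which may differ from the annotation behind the counts. Genes called uncertain share at least 20% of their exon bases with an overlapping gene, or at least 20% of their 31-base stretches with genes elsewhere. Promoter windows are RefSeq's (GRCh38.p14). The fits were tested on simulated data.

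The members and lists were chosen with earlier results of these data known. Named from each list were up to 3 called genes per knockdown with the largest change where the higher group had at least 5 CPM. For likeness they were 3 genes per member with a mean of at least 5 CPM. Some genes chosen by this rule are not reported here. The alternatives were DESeq2 size factors, library totals alone, the DESeq2 1.42.0 Wald test, no filter, at least 10 counts in every library, a replicate block, fits of the 2 groups alone, and leaving out each library.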

Additional observations from a re-analysis of the deposited data

How the results depend on the processing

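Under 19 alternatives, tests of the 10 genes and of genes named from lists, counts of calls and list medians were recomputed. Tests of markers and overlapping genes, ratios, levels per kilobase, likeness and counts of groups without overlap were not. Of 741 refits of the 39 called results of the 10 genes, 727 remained called in the same direction, 14 lost the call and 0 reversed; the losses were OSGIN1 in siSLC25A1 against siControl (7), NQO1 in siSLC25A1 against siACO1 (6) and PRDX1 in the same comparison (1). Of 399 refits of the 21 results not called, 14 became called and 13 changed sign. Scaled by library totals alone, KEAP1 in siACLY against siControl was 0.0179 and PRDX1 in siSLC25A1 against siACLY was -0.0297, and PRDX1 there was -0.00412 with at least 10 counts in every library. With 1 library left out, signs changed within -0.00383 to 0.0831 for NFE2L2, -0.00288 to 0.0850 for SRXN1 and -0.0639 to 0.0386 for ABCC2 in siSLC25A1 against siControl, -0.0700 to 0.00785 for KEAP1 in siACLY and -0.0458 to 0.0341 for BACH1 in siACO1 against siControl, and -0.0555 to 0.0197 for KEAP1 and -0.00722 to 0.0504 for PRDX1 in siSLC25A1 against siACLY. All 228 refitted counts of called genes and members were within 1.5 times the value given, and of the refits of other named genes 30 lost the call and 0 reversed. In siACO1 against siControl the list medians ranged from -0.27 to -0.08 for the other NRF2 targets, from -0.08 to 0.01 for NRF2 partners, from -0.09 to 0.02 for the thioredoxin system and from -0.06 to 0.10 for the other ABCC genes.

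Deviations of libraries with the same replicate number correlated between -0.03 and 0.07 over 18 pairs, so the numbers were not taken to pair samples. With a replicate block, 3270, 6038 and 6093 genes were called in siSLC25A1, siACLY and siACO1 against siControl, beside 3173, 5944 and 6008 without it, and 5, 5 and 8 of the 10 genes. Few counts stood behind SQSTM1, ABCC3 and CBR3, at 7.75, 6.42 and 4.00 CPM in siControl. The calls of SQSTM1 and ABCC3 were lost under 7 and 4 settings.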
